A study of Mus musculus with 4 samples.

Results

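The transcripts of the 4 NHERF scaffolds (Pdzd3, Slc9a3r1, Slc9a3r2 and Pdzk1) and of the 3 clathrin chains (Clta, Cltb and Cltc) were followed in whole kidney of mice with and without Usp2, a ubiquitin-specific protease that removes ubiquitin from other proteins. They were chosen by gene symbol, as the array rows that the platform's annotation pairs with 1 of these 7 symbols. All 7 were found among the 19934 genes measured, each by 1 row of its own. The mice were C57BL6/N males aged 12 weeks, either Usp2-KO or WT littermates of these, housed for 3 weeks with 12 h of light and 12 h of darkness a day and killed at Zeitgeber time 12, when Usp2 peaks per the labels. Kidneys came from 6 littermate pairs. Each array measured the mixed RNA of 3 mice of a genotype, with 2 such pools for WT and 2 for Usp2-KO, and a Usp2-KO pool and the WT pool of the same number hold littermates. The labels used here do not say how the gene was disrupted or in which cells, and a pool of 3 animals does not show how single animals differ. In bulk RNA of a whole organ, fewer cells of a type and less RNA per cell cannot be told apart.

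NHERF proteins are scaffolds beneath the apical membrane of epithelial cells. Their PDZ domains grip the last residues of transporters and receptors, and some of them are tied to the actin cortex through ezrin and its relatives. In the kidney they are best known for holding the phosphate transporter Slc34a1 and the sodium-hydrogen exchanger Slc9a3 in the brush border of the proximal tubule, and Pdzd3, also called NHERF4, is also known to bind the epithelial calcium channels. Clathrin is the coat that buds vesicles from the plasma membrane and the trans-Golgi network. Its unit is a three-legged assembly of heavy chains (Cltc), each carrying a light chain of either kind (Clta or Cltb). Adaptors such as AP-2 link the coat to the cargo, and dynamin and the uncoating chaperones complete the cycle.

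Values are log2 expression, so a difference of 1 is a doubling. Usp2 itself, the check of the labels, was at a log2 value of 11.63 and 11.71 in the WT pools and at 7.65 and 7.60 in the Usp2-KO pools. Defining markers of the kidney were present in every pool. The 11 proximal tubule markers averaged a log2 value of 13.04 in both WT pools and 13.04 to 13.07 in the Usp2-KO pools. By limma, 0 of them had an unadjusted p under 0.05. Over all marker lists 16 of 79 genes (20.3%) did, 10 higher and 6 lower, beside 9.11% of all genes. The lists of distal convoluted and connecting tubule, of intercalated cells, and of pancreas and adrenal had 3 each. The mean of 6 distal convoluted and connecting tubule markers was 10.48 to 10.49 in WT and 10.69 to 10.74 in Usp2-KO pools. Of these 4 were higher and 2 lower. The calcium handling genes Trpv5 (0.55), Calb1 (0.44) and S100g (0.42) had the largest differences, Usp2-KO minus WT, and Slc12a3 (-0.062) and Pvalb (-0.084) had the opposite sign. The mean of 7 intercalated cell markers was 9.30 to 9.31 in WT and 9.44 to 9.48 in Usp2-KO pools. Of these 5 were higher and 2 lower, from -0.013 (Slc4a1) to 0.348 (Atp6v0d2). The 7 principal cell markers also had 5 higher and 2 lower, with a median of 0.105. The 6 thick ascending limb markers had 5 higher and 1 lower, with a median of 0.0785. Among tissues beside the tubule, 7 markers of pancreas and adrenal averaged 6.33 to 6.35 in WT and 6.20 to 6.21 in Usp2-KO pools, and all 7 were lower. The 6 urothelium markers were all lower too (median difference -0.15). Their means were 7.22 and 7.41 in the WT pools and 7.25 and 7.11 in the Usp2-KO pools. They were highest in WT pool 2 and lowest in Usp2-KO pool 2. The means of both lists lay below the lowest array median, 7.44. Of all genes, 47.5% were higher. At an unadjusted p under 0.05 by limma, 3.88% of all genes were lower. In a fit to the 9966 genes above the median level, 2.14% were. The 6 adipocyte markers were at 7.52 and 7.53 in WT, at 7.05 in Usp2-KO pool 1 and at 7.48 in Usp2-KO pool 2. The part of these markers in the results that follow was not tested.

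Pdzd3 was the member with the largest difference between the genotypes. The 250 bases before its annotated start and before those of Pdzk1, the member with the next largest difference, are shown because these are the start regions of the scaffolds that differed most, and that of Cltb is shown as the contrast. They are RefSeq sequences of the GRCm38.p6 assembly in the direction of the gene, and capitals mark matches to 6 motifs searched on both strands. These were the clock E-box CACGTG (in 6.02% of the 32851 start regions of this length), the D-box TTATGTAA (0.819%), the GC box GGGCGG (32.7%), CCAAT (33.8%), TATAAA (12.4%) and the cAMP response element TGACGTCA (1.55%).
Pdzd3, minus strand, chr9:44251465-44251714: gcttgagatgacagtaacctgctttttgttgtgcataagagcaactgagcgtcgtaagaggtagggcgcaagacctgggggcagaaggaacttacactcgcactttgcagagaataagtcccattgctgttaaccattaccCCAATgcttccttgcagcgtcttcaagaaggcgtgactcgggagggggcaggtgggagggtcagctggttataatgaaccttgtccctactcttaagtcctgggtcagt
Pdzk1, first start, plus strand, chr3:96829815-96830064: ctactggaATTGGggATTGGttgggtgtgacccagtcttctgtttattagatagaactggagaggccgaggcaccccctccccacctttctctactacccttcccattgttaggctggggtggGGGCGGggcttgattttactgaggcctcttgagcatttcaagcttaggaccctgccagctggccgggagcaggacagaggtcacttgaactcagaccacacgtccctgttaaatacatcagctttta
Pdzk1, second start, plus strand, chr3:96831921-96832170: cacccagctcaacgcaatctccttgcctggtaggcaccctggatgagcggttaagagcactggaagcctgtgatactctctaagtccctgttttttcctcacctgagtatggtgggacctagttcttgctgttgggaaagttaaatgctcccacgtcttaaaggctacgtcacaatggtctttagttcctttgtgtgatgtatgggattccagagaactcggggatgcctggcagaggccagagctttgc
Cltb, minus strand, chr13:54611374-54611623: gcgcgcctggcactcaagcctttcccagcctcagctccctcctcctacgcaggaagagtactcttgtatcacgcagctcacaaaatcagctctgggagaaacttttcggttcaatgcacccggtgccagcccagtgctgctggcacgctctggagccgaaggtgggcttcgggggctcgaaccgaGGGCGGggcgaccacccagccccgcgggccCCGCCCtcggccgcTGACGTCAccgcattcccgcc
The Pdzd3 sequence holds 1 CCAAT and 7 CpG dinucleotides, and the median start region holds 6. The first start of Pdzk1 has 2 CCAAT boxes on the reverse strand, 1 GC box and 4 CpG, and the second has no match and 5 CpG. Cltb, by contrast, has 21 CpG, 2 GC boxes and 1 cAMP response element, and the start regions of Slc9a3r1 and Cltc have 20 and 22 CpG. The first and second starts of Slc9a3r2, the member with the smallest difference, have 12 and 3 CpG. Those of Clta, with a difference of 0.12, have 3 and 9. Whether CpG content goes with the size of the difference was not tested. None of the start regions of the 7 members held an E-box, a D-box or a TATAAA match. A match is a string of letters and not a measured site.

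In the scaffold Pdzd3, the log2 value was 9.91 in WT pool 1, 10.04 in WT pool 2, 9.83 in Usp2-KO pool 1 and 9.72 in Usp2-KO pool 2. Both Usp2-KO pools lay below both WT pools, with a gap of 0.079 between the groups. The difference, Usp2-KO minus WT, was -0.20 (SE 0.08), or -12.8% with a 95% interval of -23.1% to -1.13%. Its unadjusted p was 0.0358, and adjusted over all 19934 genes by limma it was 0.514, so Pdzd3 did not pass. The littermate comparisons gave -0.079 for pool 1 and -0.32 for pool 2. Most of the difference thus came from the second pair. Without WT pool 2 it was -0.13 (unadjusted p = 0.224) and without Usp2-KO pool 2 it was -0.14 (unadjusted p = 0.168). In size the difference of Pdzd3 stood at percentile 92.1 of all genes.

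Pdzk1, or NHERF3, the scaffold of the proximal tubule brush border, had the opposite sign. Its log2 value was 10.92 in WT pool 1, 10.80 in WT pool 2, 10.99 in Usp2-KO pool 1 and 11.04 in Usp2-KO pool 2. Both Usp2-KO pools lay above both WT pools, with a gap of 0.073. The difference was 0.16 (SE 0.08), or 11.4% with a 95% interval of -1.05% to 25.5%, and it did not pass (limma adjusted p = 0.58). As in Pdzd3, the second littermate pair differed more (0.24) than the first (0.073). WT pool 2 was the array with the highest Pdzd3 and the lowest Pdzk1, and Usp2-KO pool 2 the array with the lowest Pdzd3 and the highest Pdzk1. Without WT pool 2, the difference of Pdzk1 was 0.098, and without WT pool 1 it was 0.21.

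Slc9a3r1 encodes NHERF1, the scaffold that retains Slc34a1 in the brush border and binds ezrin. It had a log2 value of 11.84 and 11.89 in the WT pools and of 11.84 and 11.82 in the Usp2-KO pools. The groups did not overlap, but the gap between them was 0.0060. The difference was -0.039 (SE 0.07), with a 95% interval of -12.9% to 8.71%. Slc9a3r2, which encodes its close relative NHERF2, had values of 10.61 and 10.64 in WT and 10.60 and 10.61 in Usp2-KO pools. These groups overlapped, and the difference was -0.021 (SE 0.07, 95% interval -11.7% to 9.99%). Neither passed (limma adjusted p = 0.916 and 0.954).

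**Figure D1:**
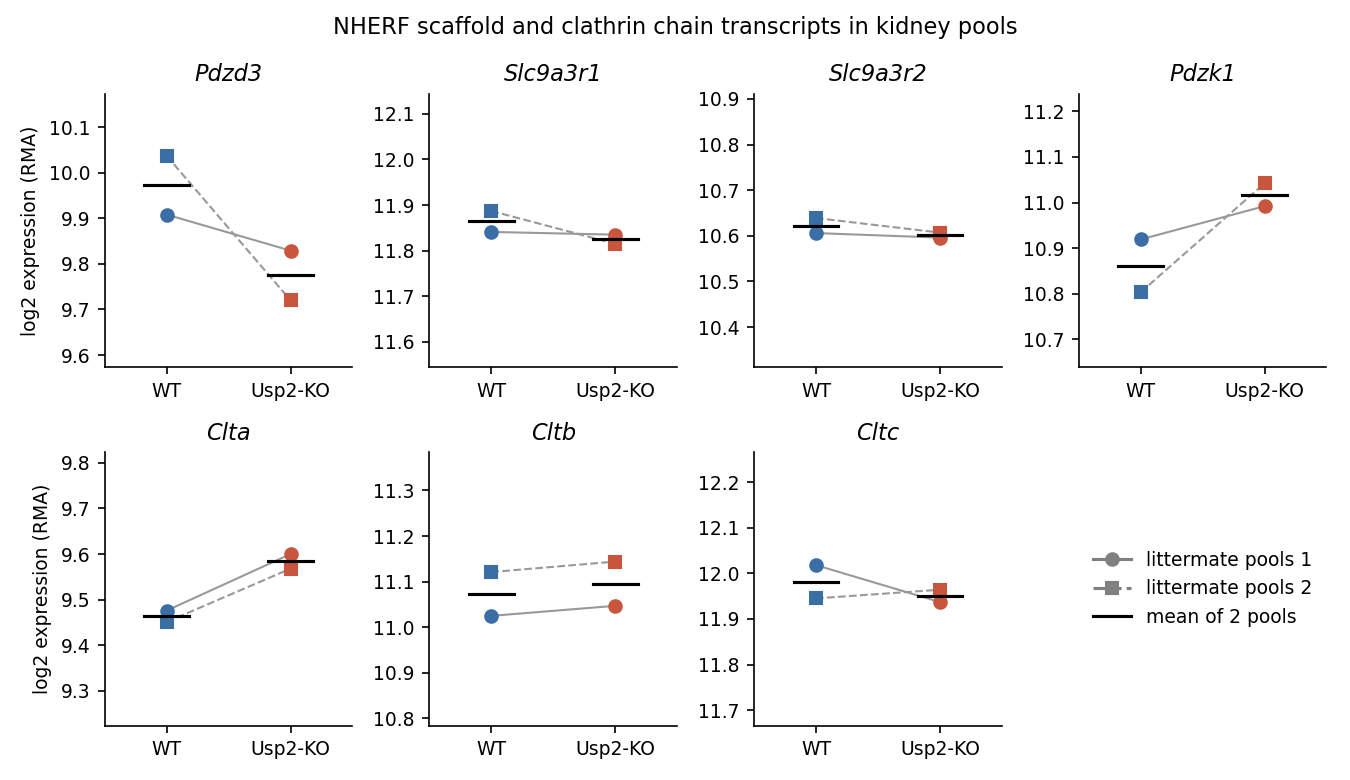
Log2 expression of the 7 members (vertical axis, RMA values, the same span in each panel) in WT (blue) and Usp2-KO (red) kidney. Circles joined by solid lines are littermate pools 1, squares joined by dashed lines are littermate pools 2, and black bars are means of 2 pools. Pdzd3 runs down and Pdzk1 up in both pairs, more steeply in pair 2, and Clta runs up by 0.12 in both.

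Of the clathrin genes, Clta was the one with groups that did not overlap. The log2 value of this light chain was 9.48 and 9.45 in the WT pools and 9.60 and 9.57 in the Usp2-KO pools. The difference was 0.12 (SE 0.07), or 8.71% with a 95% interval of -2.61% to 21.4%. Both littermate comparisons gave it, at 0.124 and 0.117. It was several times the SD between pools of one genotype, which was 0.018 in WT and 0.023 in Usp2-KO. Limma, which draws the spread of each gene towards that of all genes, gave an unadjusted p of 0.12 and an adjusted p of 0.646, so Clta did not pass.

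Cltb, the other light chain, had log2 values of 11.03 in WT pool 1 and 11.12 in WT pool 2, and of 11.05 and 11.14 in the Usp2-KO pools. The pairs ran in parallel, with pool 2 above pool 1 in both genotypes, and differed by 0.022 and 0.023. The groups overlapped, and the difference of 0.0225 (SE 0.08, 95% interval -9.94% to 14.6%) did not pass (limma adjusted p = 0.955). It was -0.026 without WT pool 1 and also without Usp2-KO pool 2. The heavy chain Cltc had log2 values of 12.02 and 11.95 in WT and of 11.94 and 11.96 in Usp2-KO pools. Its littermate comparisons had opposite signs (-0.081 and 0.019), and its difference of -0.031 (SE 0.07, 95% interval -12.6% to 9.56%) did not pass (limma adjusted p = 0.932) and was 0.0055 without WT pool 1.

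Because both light chains bind the same heavy chain, their log ratio was also compared within each array. Clta minus Cltb was -1.55 and -1.67 in the WT pools and -1.45 and -1.58 in the Usp2-KO pools. The mean was -1.61 ± 0.09 in WT and -1.51 ± 0.09 in Usp2-KO kidney (each SD, n = 2 pools). The groups overlapped, and the difference of 0.098 (0.102 and 0.094 in the littermate comparisons) had an exact two-sided permutation p of 0.667. The smallest p that 2 arrays against 2 can give is 0.333, so this test could not have passed at 0.05. Levels of different probes cannot be set against each other, so the ratio itself does not say which light chain is more abundant.

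**Figure D2:**
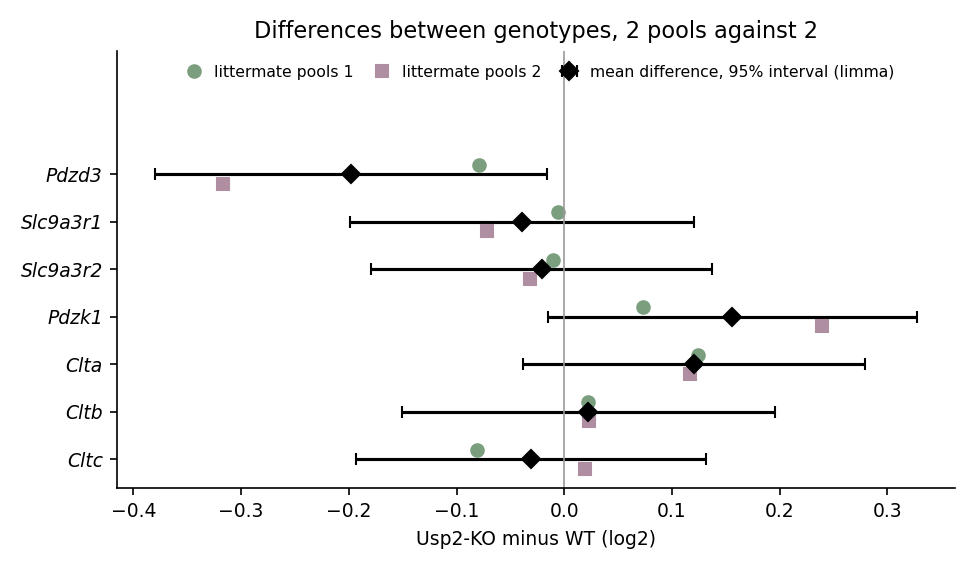
Usp2-KO minus WT (horizontal axis, log2) for the 7 members. Diamonds are means over 2 pools per genotype with 95% intervals from limma, and circles and squares are the comparisons of littermate pools 1 and 2. The interval of Pdzd3 ends at -0.016 and those of the other 6 members include 0.

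Across the 7 members, 0 passed the adjusted threshold of 0.05, against 0.00502% of all genes, which is Usp2 alone. At an unadjusted p under 0.05 there was 1, Pdzd3, while 9.11% of all genes met that limit. In the limma fit to genes above the median level, Pdzk1 met it too (unadjusted p = 0.0448). Of the genes in that fit, 8.80% met it as higher and 2.14% as lower. For Pdzk1, limma gave an unadjusted p of 0.0249 with an intensity trend and 0.12 with quantile normalization repeated. The groups did not overlap in 4 of the 7 (Pdzd3, Slc9a3r1, Pdzk1 and Clta), and in 38.9% of all genes. The members had 3 positive and 4 negative differences with a median of -0.021, beside a median of -0.006 for all genes. The median size of the difference was 0.039 for the members and 0.066 for all genes. Both littermate comparisons had the same sign in 6 of the 7 members, Cltc being the exception, and in 51.5% of all genes. An exact two-sided permutation test gave each of the 4 members without overlap a p of 0.333 and the others 0.667.

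Genes described as partners of NHERF scaffolds, or as other PDZ scaffolds, were examined in 4 lists with 63 measured genes. The lists were written from general knowledge, and binding by a given NHERF scaffold is not established for every gene in them. In Usp2-KO kidney 43 of them were higher and 20 lower, with a median of 0.036 (35 higher and 28 lower without WT pool 2). At an unadjusted p under 0.05, 7 (11.1%) were higher, beside 5.22% of all genes, and 0 were lower, beside 3.88%. Of the 63 genes, 51 had a mean above the median of all genes. In a fit to such genes 8 of the 51 (15.7%) were higher and 0 lower, beside 8.80% and 2.14% of the 9966 genes above the median. The count of 7 became 3 (4.76%) without WT pool 2, beside 3.64% of all genes, and 3 without Usp2-KO pool 2, beside 3.87%. It was 4 (6.35%) without WT pool 1, beside 3.71%, and 9 (14.3%) without Usp2-KO pool 1, beside 6.14%, where 1 more was lower. None passed after adjustment over all genes by limma. With the littermate pools as a block, 1 passed (0.768% of all genes did), the calcium channel Trpv5.

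Among 19 transporters and channels described as partners, 14 were higher and 5 lower (median 0.029), and 9 were higher and 10 lower without WT pool 2. Trpv5, through which calcium enters distal tubule cells, had log2 values of 9.61 and 9.65 in WT and of 10.22 and 10.13 in Usp2-KO pools. Its difference was 0.55 (SE 0.07, limma adjusted p = 0.141, and 0.000115 with the littermate block). With the pool numbers crossed the adjusted p was 0.208, and same-numbered pools deviated in opposite directions on balance (correlation -0.121 across genes). The distal markers Calb1 and S100g, at 0.44 and 0.42, passed with the littermate block too (limma adjusted p = 0.00391 and 0.00831) and not without it (0.286 for both). Of the 79 measured markers of all cell types, 7 passed with the block, beside 0.768% of all genes. The rest were the intercalated cell marker Atp6v0d2 (0.35) and the adipocyte markers Adipoq (-0.47), Cidec (-0.4225) and Retn (-0.415). The part of Calb1 and S100g in the value of Trpv5 was not tested. Its relative Trpv6 differed by 0.14 and the calcium pump Atp2b1 by 0.21, and neither passed. Atp2b1 was at 0.12 without Usp2-KO pool 2 and at 0.30 without Usp2-KO pool 1. The brush border phosphate transporter Slc34a1 differed by 0.016 (SE 0.07), with values of 14.05 and 14.03 in WT and 14.06 and 14.05 in Usp2-KO pools, and Slc9a3 differed by 0.037 with overlapping groups. Both were named for their role after their values were seen. Slc9a3 was at -0.035 without WT pool 1 and at -0.0040 without Usp2-KO pool 1.

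Of 10 receptors and signalling proteins, 5 were higher and 5 lower (median 0.0075, and -0.017 with quantile normalization repeated), and 0 had an unadjusted p under 0.05. The 3 of smallest p were the cation channel Trpc4 (-0.12), the growth factor receptor Pdgfrb (-0.13) and Gucy2c, a receptor guanylyl cyclase known to bind Pdzd3 (-0.077). Pdgfrb was at 0.045 and -0.31 in the littermate comparisons, and Gucy2c at -0.26 and 0.11. Gucy2c was at 0.051 without WT pool 1, and Pdgfrb at -0.014 without Usp2-KO pool 2.

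The 9 proteins of the cortex beneath the membrane had 7 higher and 2 lower members (median 0.083), and the groups did not overlap in 8 of 9, beside 38.9% of all genes. Of the 9, 7 were higher under each scaling run and 6 without Usp2-KO pool 2. Radixin (Rdx), which like ezrin links membrane proteins to actin, had log2 values of 9.43 and 9.49 in WT and of 9.58 and 9.78 in Usp2-KO pools. Both Usp2-KO pools were above both WT pools, with a difference of 0.22 (SE 0.09, limma adjusted p = 0.496). It was 0.12 without Usp2-KO pool 2. Slk, a kinase of these linkers, differed by 0.21 and Nf2, the related protein merlin, by 0.14 (limma adjusted p = 0.458 and 0.607). Ezrin (Ezr), named for its role after its value was seen, differed by 0.064. It was at 0.029 without WT pool 2 and at 0.098 without WT pool 1.

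Other PDZ scaffolds of epithelia numbered 25, of which 17 were higher and 8 lower (median 0.049). Mpp5, a polarity scaffold of the apical junction, had log2 values of 8.24 and 8.22 in WT and of 8.48 and 8.63 in Usp2-KO pools. The difference was 0.32 (SE 0.08, limma adjusted p = 0.306). Gipc2 differed by 0.28 and Gopc, a Golgi scaffold that sorts Cftr, by 0.18 (limma adjusted p = 0.326 and 0.516). These 3 were named for the smallest p of the list, and none passed. Their groups did not overlap, as in 14 of the 25 and in 38.9% of all genes. The 4 NHERF scaffolds themselves had 1 higher and 3 lower members, with a median of -0.030, and this split was the same under each scaling and with each pool left out.

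**Figure D3:**
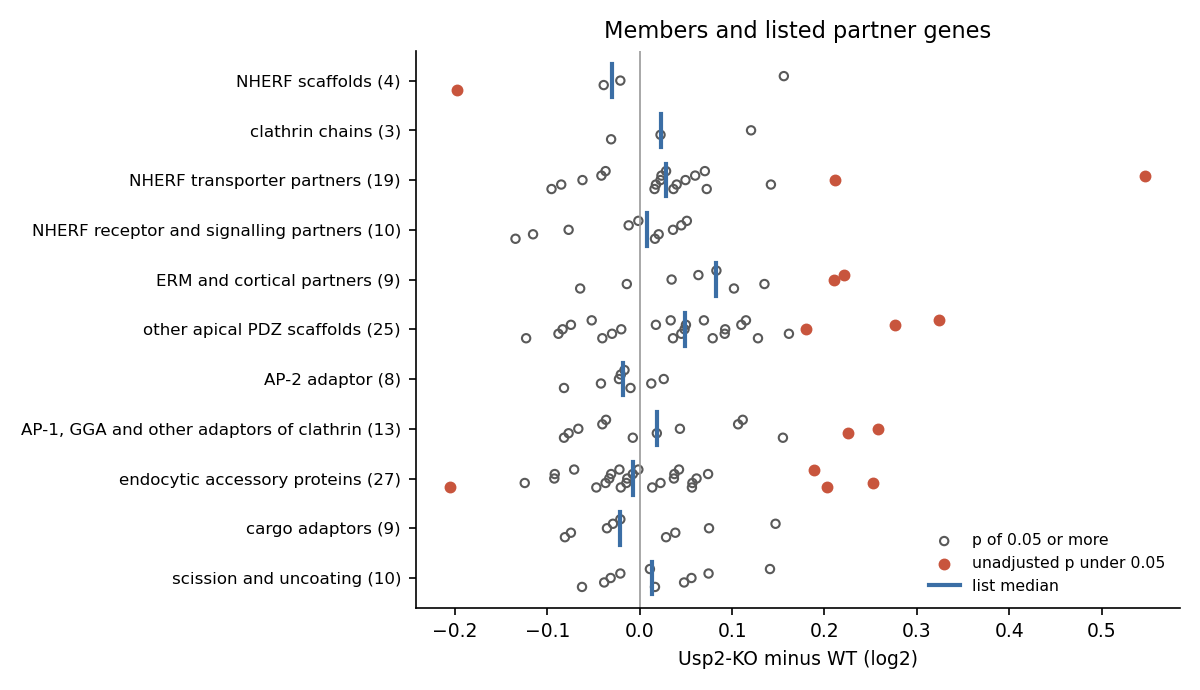
Usp2-KO minus WT (horizontal axis, log2) for every measured gene of the 4 NHERF scaffolds, the 3 clathrin chains and 9 lists of partner genes (number measured in parentheses). Filled red points have an unadjusted p under 0.05, open points do not, and blue bars are list medians. The list medians lie between -0.030 and 0.083, and Trpv5 at 0.55 lies farthest to the right.

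The machinery around clathrin was examined in 5 lists with 67 measured genes. In Usp2-KO kidney 31 were higher and 36 lower, with a median of -0.0075. The split was 25 to 42 with quantile normalization repeated, 39 to 28 without WT pool 2 and 43 to 24 without Usp2-KO pool 2. At an unadjusted p under 0.05 there were 5 higher and 1 lower, together 8.96% beside 9.11% of all genes. None passed after adjustment over all genes by limma, with or without the littermate block.

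AP-2, the adaptor that recruits clathrin at the plasma membrane, had 8 measured genes with its kinase and its helper proteins, all between -0.082 and 0.026. Of these 2 were higher, 0 with quantile normalization repeated and 5 without Usp2-KO pool 2. The 3 of smallest p were its subunits Ap2a1 (-0.082), Ap2s1 (-0.042) and Ap2a2 (0.026, and -0.00019 with quantile normalization repeated). Ap2a1 was at -0.028 without Usp2-KO pool 2. Adaptors of the trans-Golgi network and endosome (13 genes, median 0.019) varied more. Ap1s2, a small AP-1 subunit, had log2 values of 5.09 and 5.18 in WT and of 5.39 and 5.40 in Usp2-KO pools, with a difference of 0.26 (SE 0.07, limma adjusted p = 0.363). Its values lay below the lowest array median, 7.44, and whether they are background is unknown. Ap1ar, a regulator of AP-1, differed by 0.23 and Ap1s3 by 0.16, and neither passed.

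Endocytic accessory proteins, which start, bend and sort the coated pit, had 12 higher and 15 lower of 27 (median -0.0075), and 18 higher and 9 lower without Usp2-KO pool 2. Sh3gl2, an endophilin that bends membrane, had log2 values of 9.67 and 9.64 in WT and of 9.89 and 9.93 in Usp2-KO pools. Its difference was 0.25 (SE 0.07, limma adjusted p = 0.354). Rab5a, the GTPase of early endosomes, differed by 0.20 and Fcho2, which nucleates pits, by 0.19. Epn3, an epsin named after its value was seen as the lowest of the list, had log2 values of 9.23 and 9.33 in WT and of 9.12 and 9.02 in Usp2-KO pools. It differed by -0.21 (SE 0.08, limma adjusted p = 0.468) and, like Pdzd3, was highest in WT pool 2 and lowest in Usp2-KO pool 2.

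Cargo adaptors (9 genes, median -0.021) and the genes of scission and uncoating (10 genes, median 0.014) had 0 members with an unadjusted p under 0.05. Among the first, Arrdc3 differed by 0.15, Hgs, which sorts ubiquitinated cargo at the endosome, by -0.081 and Numbl by -0.075. Arrdc3 was at 0.054 without WT pool 2 and at 0.24 without WT pool 1. Among the second, the dynamin gene Dnm3 differed by 0.14, the lipid phosphatase gene Ocrl by 0.075 and Dnm1 by -0.063. Without WT pool 2 Dnm3 was at 0.088 and Dnm1 at -0.030, and without WT pool 1 they were at 0.19 and -0.095. Dab2, the adaptor of megalin in the proximal tubule, and Hspa8, the chaperone that strips the coat, were named for their role after their values were seen. Dab2 differed by 0.039 and Hspa8 by 0.056 on the row of highest mean. When each gene was taken as the mean of its rows, Dab2 was at 0.28 and Hspa8 at 0.028, and neither passed by limma.

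Pdzd3 lies on chromosome 9, on the same stretch as Usp2, and no other member shares that chromosome with it. In the gene order of GRCm38.p6, 5 measured genes lie between Usp2 and Pdzd3. They are the ubiquitin ligase gene Rnf26 (-0.11, and -0.0040 with the mean of its rows), the gene model Gm10687 (-0.11), the adhesion gene Mcam (-0.14), the ubiquitin ligase gene Cbl (0.053) and Ccdc153 (-0.075). Of the 5, 4 were lower and 1 was higher, with a median of -0.11, and 0 had an unadjusted p under 0.05. Mcam was at -0.058 without Usp2-KO pool 2, Cbl at 0.00 without WT pool 2 and Ccdc153 at 0.030 without Usp2-KO pool 1. Thy1, the neighbour of Usp2 on the other side, differed by -0.048, with opposite signs in the littermate comparisons (-0.22 and 0.12), and was at 0.087 without WT pool 1. The difference of Pdzd3 was larger in size than those of these 6 genes, and none of them passed by limma. Whether position beside Usp2 has a part in the value of Pdzd3 was not tested.

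**Figure D4:**
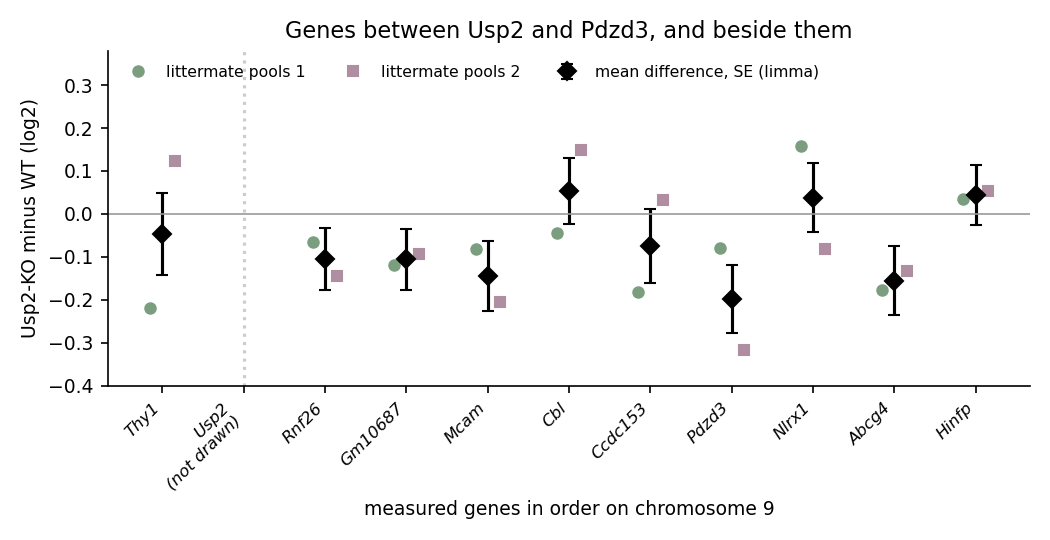
Usp2-KO minus WT (vertical axis, log2) for measured genes in their order on chromosome 9 around Usp2 and Pdzd3. Diamonds are means with SE from limma, circles and squares the comparisons of littermate pools 1 and 2, and Usp2 itself is off the scale at -4.04. Pdzd3 has the lowest mean at -0.20.

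Genes with the pattern most like that of Pdzd3 over the 4 arrays were found from the root mean square difference of the log2 values, after each gene was centred on its own mean. The nearest 3 were Gkn1, a stomach protein gene (0.0060), and the genes of digestive enzymes of the pancreas Pnliprp1 (0.0099) and Cela3b (0.011). Gkn1 had log2 values of 6.80 and 6.93 in WT and of 6.73 and 6.60 in Usp2-KO pools. Pnliprp1 lay between 5.95 and 6.25 and Cela3b between 5.87 and 6.19. All values of these 3 genes were below the lowest array median, 7.44, and whether they are background is unknown. The choice by pattern itself makes their differences close to that of Pdzd3, and they were -0.20, -0.20 and -0.21. The 7 markers of pancreas and adrenal, of which Cela3b is 1, were all lower too, but their mean was not highest in WT pool 2. The mean of the 6 urothelium markers was highest in WT pool 2 and lowest in Usp2-KO pool 2, as Pdzd3 was. The likeness did not extend to pool 1. There the urothelium mean was lower in WT (7.22) than in Usp2-KO (7.25), and Pdzd3 was higher in WT (9.91 and 9.83). The part of both lists in the pattern was not tested. In all, 26 genes lay within 0.02 of the Pdzd3 pattern.

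The 3 genes nearest to Pdzk1 in pattern were Supt20 (0.0080), Luc7l2 (0.0081) and Kctd9 (0.0098), with differences of 0.17, 0.14 and 0.17. They had log2 values between 8.89 and 9.46. By the choice they were, like Pdzk1, lowest in WT pool 2 and highest in Usp2-KO pool 2. As many as 70 genes lay within 0.02 of the Pdzk1 pattern. With 4 arrays such a likeness is a description, and none of these 6 genes passed by limma.

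**Figure D5:**
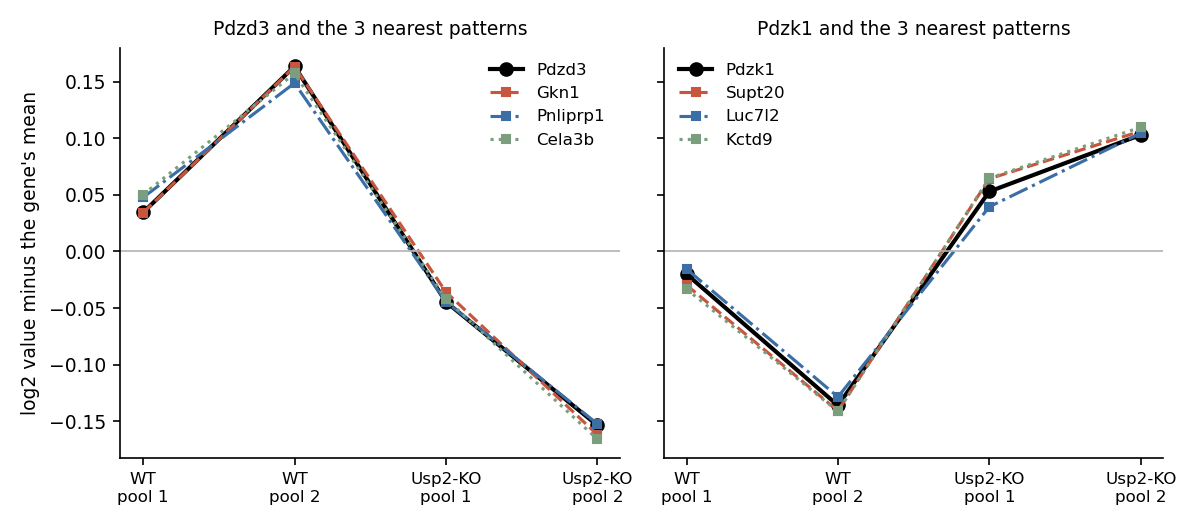
Log2 values centred on each gene's mean (vertical axis) in the 4 arrays, for Pdzd3 (left, black) and Pdzk1 (right, black) and the 3 genes with the most similar pattern. The left curves peak in WT pool 2 and are lowest in Usp2-KO pool 2, and the right curves do the reverse.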

How the data were processed

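The deposited table holds log2 values that the authors made with RMA, per the submitters' processing notes (version and genome build not given in the sources used here). RMA equalizes the distributions of the arrays, so array medians lay between 7.44 and 7.46. Of 28270 rows, 21780 had 1 symbol in the platform's annotation, 1617 several and 4873 none listed. The row of highest mean was kept for each of 19934 genes, with no filter on signal. Usp2-KO minus WT was fitted over all genes with limma 3.58.1 in R 4.3.3, genotype as the term, and adjusted by Benjamini-Hochberg, with adjusted p under 0.05 as the threshold. The fit was also run on simulated data with noise drawn from its own model of the spread and no effect of littermate pools. Such a run cannot show whether that model holds for these arrays. The number of arrays limits precision. Limma p-values rest on the spread between pools of a gene, drawn towards the spread of all genes. In the main fit, 6.87 of 8.87 degrees of freedom came from all genes. With the littermate block it was 90.6 of 91.6, so those p-values rest mostly on a spread shared over genes.

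The series' design keeps littermates in pools of the same number. These pools' deviations correlated at -0.121 across genes. Further fits took the pool number as a block, or the crossed numbers.

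The members, lists and rules were chosen with earlier results of these data known. Named were all members, the 3 genes of smallest p in each partner list, the 3 genes nearest in pattern to Pdzd3 and to the member of next smallest p, and the genes between Usp2 and Pdzd3. Others are said to be named later. Promoters came from RefSeq (GRCm38.p6), where all 7 members matched. Protein sequences were not used here. Of 138 listed partner genes 130 were measured. Figures were drawn with matplotlib 3.10.9.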

Additional observations from a re-analysis of the deposited data

How the results depend on the processing

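None of the 7 members passed an adjusted p of 0.05 under any of the 15 alternatives run (littermate block, crossed pools, intensity trend, robust prior, filters on signal, ways of treating rows, repeated quantile normalization, centring, a threshold of 0.10, each pool left out), by limma. The lowest adjusted p was 0.346 for Pdzd3, with genes above the median level, and the littermate block gave it 0.484 and changed no call among the members. The crossed pools were chosen after the data were seen and called 1 gene. Pdzd3, Slc9a3r1, Slc9a3r2, Pdzk1 and Clta kept their sign in all 15. With each pool left out, Cltb ranged from -0.026 to 0.071 and Cltc from -0.068 to 0.0055, and so turned sign. The log ratio of Clta to Cltb ranged from 0.034 to 0.16. Over all genes, the 1 call became 153 with the littermate pools as a replicate block, 18 with an intensity trend, 7 with either filter on signal, 2 at a threshold of 0.10, and 1 to 2 with a pool left out. Splits of the partner lists into higher and lower moved with single pools, as given beside them. Trpv5 passed with the block, the trend and both filters. Of the other named genes, Gucy2c ranged from -0.21 to 0.051, Slc9a3 from -0.035 to 0.11, Thy1 from -0.18 to 0.087 and Ccdc153 from -0.18 to 0.030 with a pool left out, and Ap2a2 was at -0.00019 with quantile normalization repeated. Of 46 named genes that are no members, 21 moved by over 1.5 times with some pool left out. The cause was not tested. The files hold no detection calls, so which values lie near background is unknown.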
